A study of Rattus norvegicus with 34 samples.

Results

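Transcripts of the cytosolic ribosomal protein genes were followed in rat kidney epithelial cells and in rat kidney and liver after exposure to monuron, a phenylurea herbicide. Members were taken by symbol from the array annotation. The symbol had to be Rpl or Rps followed by a number and at most a letter and a digit, or Rplp with a number, or Rpsa, and the Rps6k kinases were left out. Of 14217 genes named by 1 symbol, 48 met the rule. They comprised 29 proteins of the large subunit, 13 of the small subunit and 6 paralogues (Rpl26l1, Rpl39l1, Rpl3l, Rpl7l1, Rps27l and Rps4y2), measured by 55 probe sets. A further 36 probe sets carried several symbols of which at least 1 met the rule, and these were kept out of the members.

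The series holds 34 samples with 1 Affymetrix expression array each, namely 18 of cultured cells, 8 of kidney and 8 of liver. The cells were NRK-52E, a single epithelial line from rat kidney, whose genotype the labels give as Osborne-Mendel. They were grown to confluence and labelled as monuron or as DMSO only (0.1%) at 6, 24 and 72 h, with 3 arrays for each. For the cells the design text names chlorothalonil (1.1 µM), a different compound, so that the agent on the cells is uncertain and its dose is not known if it was monuron. The rats were male, Wistar-derived, 7 to 9 weeks of age, and weighed 190 to 240 g. Kidney and liver each had 4 arrays of rats given monuron in corn oil, 40 mg/kg on the first day and 400 mg/kg on the next 2 days, and 4 arrays of rats given corn oil (5 ml/kg). The labels say 72 h of monuron for the organs, while the protocol has the rats killed 72 h after the last dose. The protocol has 8 rats in all, but no label ties a kidney to a liver. Arrays of a group are labelled as biological replicates, and nothing more is stated of separate cultures, so that p-values measure the spread between these samples.

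Each ribosome joins a small subunit, which reads the mRNA, to a large subunit, which forms the peptide bond and passes the chain through an exit tunnel. The proteins of both subunits are needed in equal numbers, and their genes are among the most strongly transcribed in any growing cell. Most of their mRNAs begin with a C followed by a run of pyrimidines, the terminal oligopyrimidine (TOP) motif, through which the mTOR kinase sets how much of the mRNA is translated. Transcript levels, as measured here, need not follow translation.

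The start of transcription is shown for the members on which the results below turn, because the TOP motif lies there. Each line gives the 25 bases before the start annotated by RefSeq on GRCr8 and the first 15 bases from it, written 5′ to 3′ on the strand of the gene. Capitals mark the longest run of C and T near that start, or the run that crosses it where the first base is a C followed by at least 4 C or T.
Rpsa: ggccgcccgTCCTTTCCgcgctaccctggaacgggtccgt
Rpl35a: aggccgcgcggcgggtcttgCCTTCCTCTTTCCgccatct
Rpl22: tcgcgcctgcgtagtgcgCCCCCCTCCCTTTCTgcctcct
Rps3: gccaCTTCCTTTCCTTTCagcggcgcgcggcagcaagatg
Rpl4: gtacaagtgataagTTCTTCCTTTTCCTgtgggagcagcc
Rpl11: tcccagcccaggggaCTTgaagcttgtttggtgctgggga
Rpl5: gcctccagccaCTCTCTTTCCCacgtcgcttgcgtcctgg
Rpl23: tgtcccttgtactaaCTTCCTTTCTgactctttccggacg
The windows lie at chr8:128728854-128728893 (Rpsa, plus strand), chr11:81235007-81235046 (Rpl35a, minus), chr5:168117936-168117975 (Rpl22, plus), chr1:163195762-163195801 (Rps3, minus), chr8:73566452-73566491 (Rpl4, plus), chr5:153560788-153560827 (Rpl11, minus), chr14:1995211-1995250 (Rpl5, minus) and chr10:83272170-83272209 (Rpl23, minus). Rpl35a and Rpl22 have a C at the annotated start inside a pyrimidine run. In Rpl4 the run also crosses the start but ends soon after it, and in Rpsa, Rps3, Rpl5 and Rpl23 the run ends upstream of the start used. For each gene the first start in the promoter table was used. In Rpsa, Rpl35a, Rpl22, Rps3, Rpl11 and Rpl5 it lies inside the RefSeq span of the gene, and other starts were not looked at. The span of Rpl5 ends at 1995236, within the capitalised run. A start without a run here therefore does not show that the gene lacks the TOP motif. The run capitalised in Rpl11 is 3 bases long. The promoter table held 43 of the 48 members. Among these, 12 (27.9%) had a C at the annotated start followed by at least 4 C or T, against 2.63% of the 33469 promoters in the table. The motif CCGGAAG, which ETS factors bind, was found on either strand between 250 bases before the start and 50 after it in 10 of 43 members (23.3%) and in 8.75% of all promoters.

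Values are log2 expression, and each difference is monuron minus DMSO or control on that scale. A gene passed the threshold when its adjusted p in limma, over all genes tested in that comparison, was below 0.05. Pearson's r between arrays of a group was 0.987 to 0.999 across probe sets, and it was lowest in the DMSO group at 72 h. The cells were labelled as proximal tubule cells, but all 10 kidney tubule markers lay below the array median in every cell group, as did the 8 hepatocyte markers. Of 7 epithelial markers Krt8 and Cdh2 lay above it, as did Col1a1, Col1a2, Col3a1 and Acta2 among 8 fibroblast markers. In kidney all 10 tubule markers were above the array median, and in liver all 8 hepatocyte markers. The organs and the cell layers are bulk samples, in which fewer cells of a type and less RNA per cell cannot be told apart.

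The ribosomal proteins sat at the bright end of the arrays. Of the 48 members 42 passed the filter on dim probe sets in cells, 39 of them with a mean of at least 12, between 13.48 and 15.88. In kidney 42 passed and 38 were that bright, between 12.80 and 15.95, and in liver 38 of 42 lay between 12.47 and 15.58. Rpl26l1, Rpl28, Rpl30, Rpl3l and Rps13 were left out in all 3 sample types, Rps4y2 in cells only and Rpl39l1 in both organs. Rpl39l1 averaged 13.48 over the cell arrays and lay below the array median on 8 of 8 kidney arrays. The members were measured precisely: the median standard error (SE) of a member's difference was 0.05 in cells and 0.06 in kidney, against 0.14 and 0.12 for all genes tested.

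**Figure D1:**
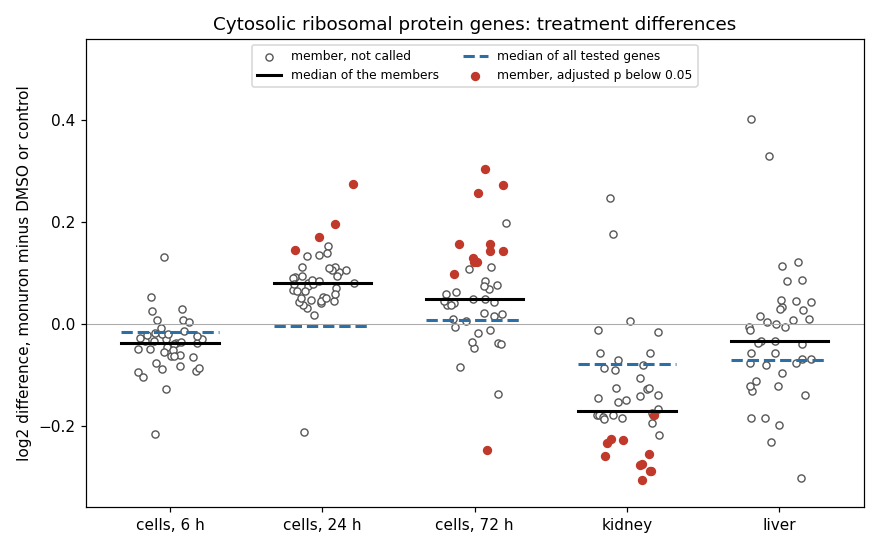
Each point is 1 ribosomal protein gene, and the vertical axis is its log2 difference, monuron minus DMSO (cells) or minus control (organs). Filled points passed the threshold; solid bars are the medians of the 42 members tested and dashed bars those of all genes tested. The members lie almost wholly above 0 in cells at 24 h and almost wholly below 0 in kidney.

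After 6 h the ribosomal protein genes of the cells differed little between monuron and DMSO. In limma 0 of 42 members passed the threshold in either direction, where 3.3% of all tested genes were higher and 3.02% were lower. An unadjusted p below 0.05 was found for 4 members and was not counted over all genes. The median difference of the members was -0.04, against -0.02 over all genes. Values did not overlap between the groups for 11 members on the lower side (20.5% of all tested genes) and for 2 on the higher side (17.6%). Rpl39l1 had the lowest difference, -0.22 (SE 0.07, adjusted p = 0.0955), with 13.63, 13.60 and 13.50 on the monuron arrays and 13.95, 13.74 and 13.69 on the DMSO arrays. Rpl23a, at the exit of the tunnel, had a difference of -0.13 (SE 0.05, adjusted p = 0.15), with every monuron array below every DMSO array, although the closest pair both round to 15.37. At 6 h arrays of the same replicate number varied together by the rule given below, although only 4 of 6 correlated best with their own number. With that number as a block 6 members (14.3%) were lower, among them Rpl39l1 (adjusted p = 0.00664) and Rpl23a (adjusted p = 0.0108). In that fit 17.5% of all tested genes were lower, so the share of the members was no higher than that of genes at large.

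At 24 h nearly all ribosomal protein genes lay slightly higher with monuron, and 4 passed the threshold. The difference was above 0 for 41 of 42 members, with a median of 0.08 (5.78% higher), where the median of all tested genes was -0.003 and 50.4% of them lay below 0. Rpsa, Rpl35a, Rpl22 and Rps3 rose and 0 members fell, against 6.43% of all genes higher and 7.14% lower. Values did not overlap for 15 members on the higher side (24.4% of all tested genes) and 1 on the lower side (25%). The median of the members on each array was 14.907, 14.948 and 14.925 with monuron, against 14.828, 14.806 and 14.881 with DMSO. All 3 monuron arrays lay above all 3 DMSO arrays in this measure.

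Rpsa, a protein of the small subunit that is also known as the laminin receptor, was the member with the largest rise. It had 14.70, 14.73 and 14.73 on the monuron arrays at 24 h and 14.44, 14.39 and 14.50 on the DMSO arrays. The groups were far apart relative to their spread, and the difference was 0.28 (SE 0.05, n = 3 against 3, limma adjusted p = 0.00297), or 21.1%. Of its other probe sets, 1 differed by 0.43 (adjusted p = 0.00862) and 1 by 0.15 (adjusted p = 0.0934), so that 2 of 3 passed the threshold. Those 2 are of the _s_at and _x_at types, which 1 alternative left out, and the plain _at set missed the threshold. In kidney and liver that plain set stood for Rpsa. Rpl35a, mutated in Diamond-Blackfan anaemia in humans, had 14.79, 14.83 and 14.89 with monuron and 14.62, 14.63 and 14.67 with DMSO. Its difference was 0.20 (SE 0.04, adjusted p = 0.00568).

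Rpl22, needed in mice for T cell development, reached 14.74, 14.81 and 14.78 with monuron against 14.62, 14.54 and 14.66 with DMSO, a difference of 0.17 (SE 0.04, adjusted p = 0.02). Rps3, at the mRNA entry channel, reached 14.77, 14.74 and 14.74 against 14.60, 14.63 and 14.58, a difference of 0.15 (SE 0.04, adjusted p = 0.0369). The groups did not overlap in either gene. Both calls were lost when single arrays were left out. Without 24 h monuron replicate 2 or 3, or DMSO replicate 1 or 2, the adjusted p of Rpl22 was 0.0574 to 0.0935, and Rps3 lost its call without any one of the 6 arrays of 24 h or without 6 h monuron replicate 2 or 3 (0.0513 to 0.112). Without any one of the 4 arrays named for Rpl22 the count of members higher was 2, with 206 to 303 over all genes. Leaving out replicate 1 of the DMSO arrays at 72 h, which share the estimate of the spread, gave 9, and leaving out replicate 3 gave 8 and 1 lower. Over all genes those 2 fits gave 891 and 1048 higher, in place of 581. The member farthest below 0 was Rpl7l1, a paralogue of Rpl7, with a difference of -0.21 (SE 0.09, adjusted p = 0.106).

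**Figure D2:**
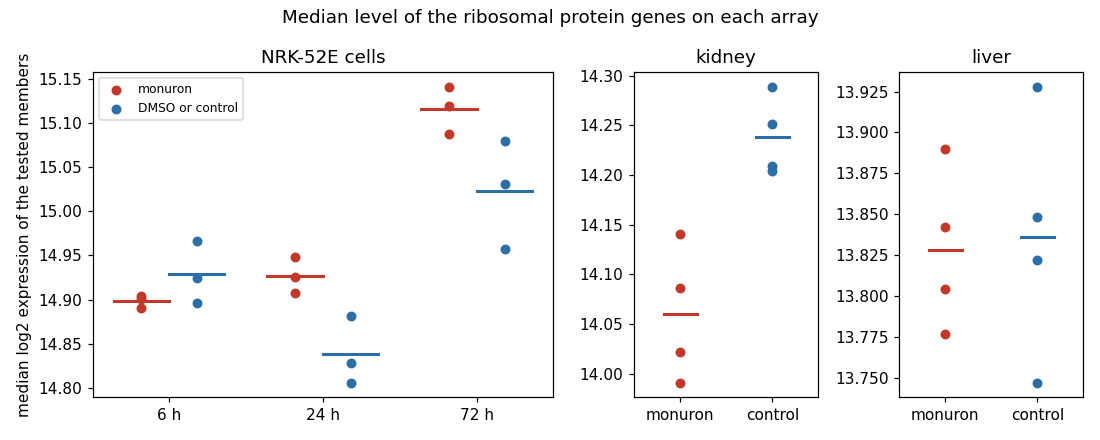
The median log2 expression of the 42 tested ribosomal protein genes is plotted for each array, with the group mean as a bar, in cells at 3 times and in both organs on separate scales. Monuron and DMSO or control arrays are fully apart at 24 h and in kidney, barely apart at 72 h (15.087 against 15.079), and overlap at 6 h and in liver.

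At 72 h 11 ribosomal protein genes rose with monuron and 1 fell, in cells in which 30.7% of all tested genes were higher and 30.9% lower. The share of members higher was 26.2% and the share lower 2.38%, so that the rise was near the background share and the fall well under it. The median difference was 0.05, against 0.01 over all genes. The members' differences ran from -0.25 to 0.31, while the standard deviation over all genes was 0.82. The median of the members on each array was 15.119, 15.141 and 15.087 with monuron and 14.957, 15.031 and 15.079 with DMSO. All 3 monuron arrays lay above the DMSO arrays, the closest being DMSO replicate 3. In the median of the 39 bright members the groups overlapped, with monuron replicate 3 at 15.136 and DMSO replicate 2 at 15.143. Values did not overlap for 15 members on the higher side (28.6% of all tested genes) and 1 on the lower side (29.4%). Cell type markers moved in the same arrays, with Krt8 (-1.11), Col1a1 (-1.14), Col3a1 (-1.11) and the endothelial marker Tek (-1.95) lower and Acta2 (1.63) and Cd68 (2.30) higher. Cd68 was the only leukocyte marker tested in cells, and 8 of 9 lay below the array median on every monuron array of 72 h. The part of these markers in the result was not tested.

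Rpsa was again the member with the largest difference, 0.31 (SE 0.05, n = 3 against 3, limma adjusted p = 7.84e-05). It had 14.86, 14.91 and 14.92 with monuron and 14.51, 14.57 and 14.70 with DMSO. The probe set that missed the threshold at 24 h differed by 0.22 at 72 h (adjusted p = 0.00303). Rpl4, which lines part of the exit tunnel, had 15.15, 15.22 and 15.25 with monuron against 14.85, 14.94 and 15.06, a difference of 0.26 (SE 0.05, adjusted p = 0.000205). Rpl18, another protein of the large subunit, had 14.67, 14.69 and 14.66 against 14.25, 14.46 and 14.49, a difference of 0.27 (SE 0.06, adjusted p = 0.00056). In each of these genes all monuron arrays lay above all DMSO arrays.

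Rpl35a rose by 0.16 (SE 0.04, adjusted p = 0.00272), and Rpl6, Rps3, Rpl12, Rpl14, Rpl22, Rpl5 and Rpl35 by 0.10 to 0.16. The 4 genes that rose at 24 h all rose at 72 h, where they made up 4 of 11. At 72 h 30.7% of all tested genes were higher, and the overlap of these times was not counted over all genes. Rpl11, which with Rpl5 and the 5S rRNA can bind MDM2 and stabilise p53 in human and mouse cells, was the only member that fell. It had 14.62, 14.66 and 14.43 with monuron against 14.80, 14.87 and 14.78 with DMSO. The difference was -0.25 (SE 0.05, adjusted p = 0.00101), or 15.7% lower, with replicate 3 of the monuron group lowest. Its partner Rpl5 rose by 0.12 (SE 0.05, adjusted p = 0.0313).

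The number of calls at 72 h depended on the model. Arrays of the same replicate number varied together at this time by the same rule, although only 4 of 6 correlated best with their own number. With the number as a block 3 members remained higher, Rpsa (adjusted p = 0.0144), Rpl4 (0.0191) and Rpl18 (0.032), with Rpl11 lower (0.0305). Those 3 were 7.14% of the members, well under the 22.5% of all tested genes that were higher in that fit, while 21.6% were lower. Rpl35a had an adjusted p of 0.0708 in that fit. Without monuron replicate 2 the count was 7 (2523 over all genes). Without DMSO replicate 1 or 3 it was 2 members that were lower, with no count over all genes given. Rpl5 lost its call without monuron replicate 2 or 3 or DMSO replicate 1 or 2 (adjusted p 0.0538 to 0.0903), and Rpl22 without monuron replicate 1 or 2 or DMSO replicate 1 (0.052 to 0.0656). Centring each array on its median moved the median of all tested genes to 0.17, with 3604 higher and 2019 lower in place of 2774 and 2798. In that setting 34 members were higher and 0 lower, and Rpl11 had an adjusted p of 0.222. Centring shifts every gene of an array alike, so the members' median less that of all genes had to stay at 0.04. After quantile normalization that value was -0.003.

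**Figure D3:**
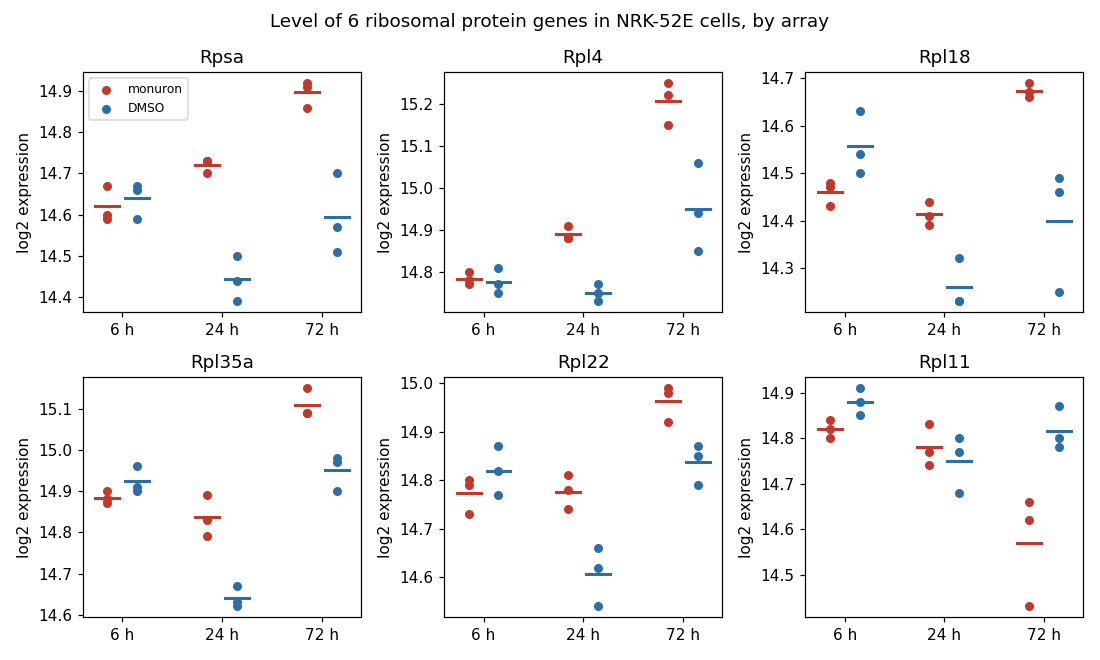
Log2 expression of 6 ribosomal protein genes on each of the 18 cell arrays, with bars at the group means. Rpsa, Rpl4, Rpl18, Rpl35a and Rpl22 lie higher with monuron than with DMSO at 24 and 72 h, although Rpl4 and Rpl18 passed the threshold at 72 h only, and Rpl11 lies lower with monuron at 72 h.

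The change of the treatment difference between times was tested as an interaction. Between 6 h and 24 h 0 members passed the threshold (0.641% of all genes were higher and 0.575% lower), although the change was above 0 for 40 of 42 members. Its median was 0.12, against 0.006 over all genes, of which 49.4% lay below 0. An unadjusted p below 0.05 was found for 18 members and was not counted over all genes. For Rpsa the change was 0.30 (SE 0.07, adjusted p = 0.0506). Leaving out DMSO 72 h replicate 1 or 3 gave 6 or 5 members higher in this test, and leaving out monuron 72 h replicate 3 gave 2. Over all genes those fits gave 232, 330 and 103 higher. Between 24 h and 72 h Rpl11 alone passed the threshold (-0.28, SE 0.08, adjusted p = 0.0101), where 19.6% of all genes were lower and 18.3% higher. The 24 h arrays enter both of these contrasts. With arrays centred on their medians Rpl11 missed the threshold (-0.13, adjusted p = 0.23), and 0 members were lower. The count lower was 3 on leaving out the first DMSO array of 72 h, and 2 on leaving out the third. No counts over all genes are given for those 2 fits.

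The ribosomal protein genes also differed between times within the DMSO cells. The same DMSO arrays enter the treatment differences, so the courses are not independent of them. At 24 h against 6 h, 19 of 42 members were lower in DMSO and 0 higher, against 28.3% and 24.8% of all genes. The median was -0.11 for the members and -0.03 for all genes, and after quantile normalization -0.03 and -0.07, the opposite order. Rps27l, a paralogue that p53 induces in human cells, had 9.13, 8.72 and 9.61 at 24 h and 10.29, 10.12 and 9.92 at 6 h, a difference of -0.96 (SE 0.17, adjusted p = 0.000206). Rpl39l1 was lower by 0.41 on the log2 scale in its mean, 13.38 at 24 h against 13.79 at 6 h (adjusted p = 0.000241). At 72 h against 24 h, 28 members were higher and 0 lower, against 11.6% and 16.4% of all genes, with a median of 0.15 (-0.04 over all genes) and all 42 differences above 0. Rpl23a had the value 15.63 at 72 h against 15.33 at 24 h in DMSO (difference 0.30, SE 0.05, adjusted p = 0.000577), and Rpl23, which can also bind MDM2 in human cells, 15.55 against 15.34 (adjusted p = 0.00219). Without DMSO 24 h replicate 2 the count of members higher was 19, with no count over all genes given beside it. By quantile normalization 10 were lower at 24 h (2729 over all genes) and 13 higher at 72 h (1147 over all genes). Cell type markers moved too, with Col1a2 (2.00) and Col3a1 (1.41) higher and Acta2 (-1.18) lower at 24 h against 6 h, and Col1a2 (1.04) higher and Krt8 (-0.96) and Cdh2 (-0.61) lower at 72 h against 24 h. Their part in the result was not tested.

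In rat kidney the ribosomal protein genes lay lower after monuron, and 11 fell. The difference was below 0 for 39 of 42 members, with a median of -0.17 (11.1% lower), where the median of all tested genes was -0.08 and 64.3% of them lay below 0. Of the members 26.2% fell and 0 rose, against 6.34% of all genes lower and 3.87% higher. Values did not overlap, with all 4 monuron arrays below all 4 control arrays, for 25 of 42 members, or 59.5%, against 13.6% of all tested genes, and for 0 members on the other side (5.74%). The median of the members on each array was 14.022, 14.086, 13.991 and 14.141 with monuron and 14.209, 14.204, 14.289 and 14.251 in controls. The 767 other tested genes with a mean of at least 12 had a median difference of 0.004, with 10.6% higher and 5.87% lower.

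Rpl5 had 14.33, 14.33, 14.30 and 14.34 in kidneys of monuron rats and 14.53, 14.58, 14.67 and 14.61 in control kidneys. The groups did not overlap, and the difference was -0.27 (SE 0.05, n = 4 against 4, limma adjusted p = 0.0091), or 17.3% lower. Rpl23 had 14.40, 14.37, 14.34 and 14.43 against 14.62, 14.70, 14.59 and 14.66, a difference of -0.26 (SE 0.05, adjusted p = 0.01). Rpl23a, where the signal recognition particle docks, had 14.20, 14.24, 14.19 and 14.19 against 14.42, 14.36, 14.50 and 14.44, a difference of -0.23 (SE 0.05, adjusted p = 0.0188). In these large-subunit genes the monuron arrays spanned less than the controls.

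In the small subunit, Rps24, another gene mutated in Diamond-Blackfan anaemia in humans, had 14.43, 14.40, 14.42 and 14.46 with monuron against 14.72, 14.69, 14.58 and 14.66 in controls. The difference was -0.23 (SE 0.05, adjusted p = 0.0167). Rps6, the substrate of the S6 kinases, had 14.03, 14.12, 14.07 and 14.23 against 14.32, 14.31, 14.44 and 14.39, a difference of -0.26 (SE 0.06, adjusted p = 0.0246). No array of either group crossed into the other in these genes. The rest of those that fell were Rpl3, Rpl4, Rpl24, Rpl22, Rpl12 and Rpl26, with differences of -0.31 to -0.18 and adjusted p-values of 0.0214 to 0.0486. By class, 9 of 27 tested large-subunit genes and 2 of 12 small-subunit genes fell, and 0 of 3 paralogues.

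Members that did not pass the threshold spread from just short of it to 0. Rplp0, at the base of the ribosomal stalk, had a difference of -0.19 (SE 0.06, adjusted p = 0.0714), and Rpl11 of -0.17 (adjusted p = 0.0814). Rps3 had -0.14 (adjusted p = 0.0873), again with groups that did not overlap. Rpsa (-0.06), Rpl13a (-0.01) and Rpl21 (0.01) lay near 0 with overlapping groups. The other probe sets of Rpsa had differences of 0.045, for the set that stood for it in cells, and 0.195. Neither passed the threshold. Among the probe sets used in kidney, the differences above 0 belonged to Rpl21 and to the dimmer Rps27l (0.25, SE 0.22) and Rps4y2 (0.18, SE 0.31). Of the 11 members that fell in kidney, Rpl4, Rpl5, Rpl12 and Rpl22 were among the 11 that rose in cells at 72 h. In those cells 30.7% of all tested genes rose, and this overlap was not counted over all genes.

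**Figure D4:**
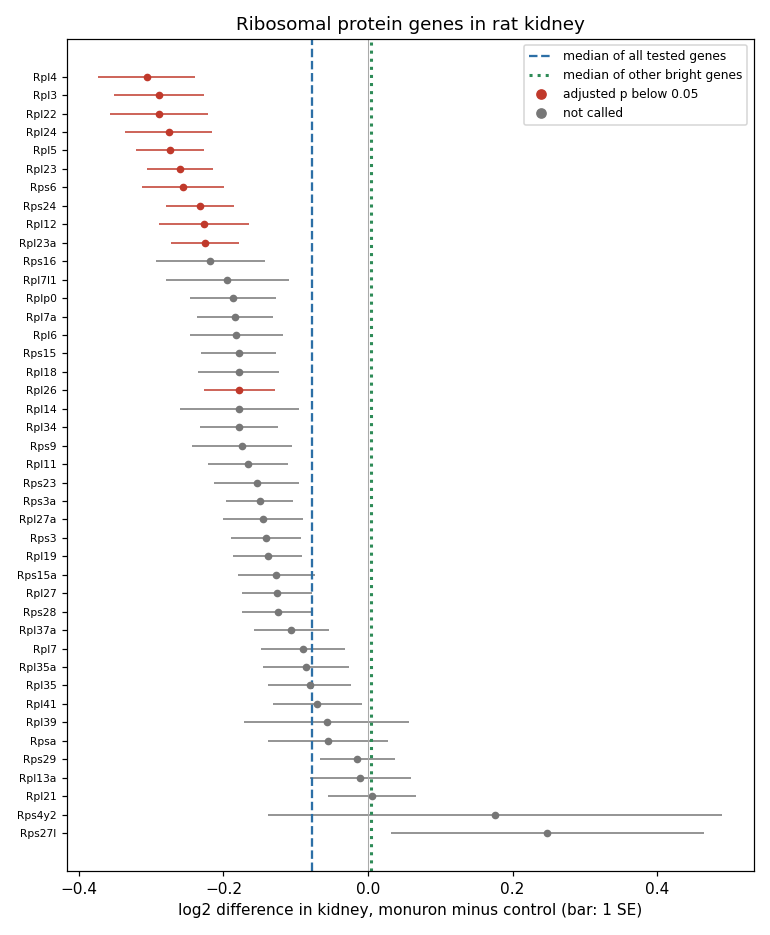
Log2 differences in kidney, monuron minus control, of the 42 tested ribosomal protein genes with bars of 1 SE, sorted by size, with red for those past the threshold. All but Rpl21, Rps4y2 and Rps27l lie below 0, and most lie below the dashed median of all tested genes (-0.08), while the dotted median of other bright genes is at 0.004.

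The count in kidney moved with single arrays and with the scaling. It was 2 without monuron replicate 3, the array with the lowest median, 3 without control replicate 3, the array with the highest, and 5 or 6 without monuron replicate 1 or control replicate 4. Leaving out an array changes the calls of all genes. Their counts are not given for these fits, so the falls cannot be set against genes at large. Rpl5 and Rpl23 passed the threshold without any one array. With the replicate number as a block, which does not pair the kidney arrays, both missed it (limma adjusted p = 0.0549 each). Rpl3 kept it in that fit (0.0422). Rps24 missed it without monuron replicate 3 (adjusted p = 0.0524), and Rpl23a without that array (0.0592) or control replicate 3 (0.0643). Rpl3, Rpl22 and Rps6 lost it without monuron replicate 1 or 3 or control replicate 3, and Rpl22 and Rps6 also without control replicate 4 and Rps6 without monuron replicate 2 (0.0508 to 0.0862). Rpl26 kept it only without control replicate 4. Centring each array on its median moved the median of all genes to 0.01, with 533 higher and 289 lower in place of 369 and 605, and left 1 member lower. Centring on the other bright genes instead gave 18 and put the median of all genes at -0.096. The count over all genes is not given for that fit, so the 18 cannot be set against genes at large. Centring shifts every gene of an array alike, so it cannot move the members' median less that of all genes (-0.09 in all 3 settings). After quantile normalization that value was -0.097. Without the mean-variance trend 2 were lower, again with no count over all genes given. A second probe set of Rpl3 had a difference of 0.03.

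Some cell type markers differed in the same kidneys. The mean of 8 hepatocyte markers was 4.46 to 6.13 on the monuron arrays and 3.76 to 5.04 on the control arrays, with Alb, Ttr and Cyp2c11 above the array median on every monuron array and Alb and Cyp2c11 on every control array. None of the 4 tested hepatocyte markers passed the threshold, with Alb at 2.43 (adjusted p = 0.0608), Cyp2c11 at 1.30, Ttr at 1.25 and Fgb at -1.32. Of 7 epithelial markers Krt8 fell (-0.61) and Cdh2 rose (0.64). The kidney tubule markers averaged 13.62 to 13.77 with monuron and 13.42 to 13.57 in controls, and 2 of 10, Cubn (1.01) and Lrp2 (0.63), both endocytic receptors of the proximal tubule, rose. Of 9 leukocyte markers 4 lay above the array median in both groups, their mean being 5.69 to 5.99 with monuron and 5.67 to 5.82 in controls, and Ptprc rose by 0.47. The part of these markers in the ribosomal protein result was not tested.

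In liver 0 of 42 members passed the threshold in limma, where 1.1% of all genes were higher and 2.02% lower. An unadjusted p below 0.05 was found for 7 members and was not counted over all genes. The median difference of the members was -0.03, against -0.07 over all genes. That order turned with no filter on dim probe sets (-0.02 for the members, 0.001 for all genes) and after quantile normalization (-0.051 and -0.045). Values did not overlap for 4 members on the lower side (9.93% of all tested genes) and 1 on the higher side (4.12%). Rpsa had 12.94, 12.93, 12.81 and 12.88 in livers of monuron rats and 13.22, 13.10, 13.05 and 13.12 in controls, a difference of -0.23 (SE 0.06, adjusted p = 0.0648) with no overlap. Rpl18 differed by -0.18 (SE 0.05, adjusted p = 0.0926), also with no overlap. Rps27l had 7.81, 7.60, 8.06 and 7.50 with monuron and 7.54, 7.40, 7.31 and 7.10 in controls, a difference of 0.40 (SE 0.16, adjusted p = 0.166), with 1 monuron array below the highest control. Without control replicate 3 of the liver, 1 member was higher, Rpl3 (adjusted p = 0.0259), and 1 lower, beside 165 higher and 343 lower over all genes.

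The treatment difference of liver minus that of kidney was tested in a joint fit. That fit treated the 16 organ arrays as independent, although with 8 rats in all kidneys and livers probably share animals that the labels do not match. The median over the members was 0.12, against -0.01 over all genes, and 35 of 42 members lay above 0. Rpl3 and Rpl23 passed the threshold (1.09% of all genes were higher and 1.59% lower). Rpl3, near the site where the peptide bond forms, had 13.88, 13.83, 13.85 and 13.81 in liver with monuron against 13.19, 13.48, 13.94 and 13.44 in controls, so that the liver groups overlapped through control replicate 3. In kidney it had 13.98, 14.03, 14.01 and 14.15 with monuron against 14.21, 14.33, 14.35 and 14.45. The difference of the differences was 0.62 (SE 0.15, adjusted p = 0.0426). For Rpl23 it was 0.35 (SE 0.08, adjusted p = 0.0316), with 14.13, 14.14, 14.06 and 14.10 in liver with monuron against 13.91, 13.95, 14.21 and 14.01. Both calls were fragile, since Rpl23 lost it in 9 of 16 and Rpl3 in 13 of 16 fits that left out 1 array (adjusted p up to 0.0694 and 0.0874). Median centring of the arrays left neither past the threshold (adjusted p = 0.144 for Rpl23 and 0.0858 for Rpl3). The count was 5 without liver control replicate 3, 4 without kidney monuron replicate 4, and 0 without kidney control replicate 2 or 4, kidney monuron replicate 2 or 3, liver control replicate 1, 2 or 4, or liver monuron replicate 1 or 2. Counts over all genes are not given for these fits, so the members' counts cannot be set against genes at large.

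Other genes that build the ribosome were set beside its proteins. Assembly factors, which process rRNA and fold the proteins onto it, had a median difference of -0.14 in cells at 24 h, where 11 of 70 fell and 0 rose, against 7.14% and 6.43% of all tested genes. Fbl, which methylates rRNA, fell by 0.40 on the log2 scale (SE 0.08, adjusted p = 0.00374) at a time when 41 of 42 ribosomal protein genes lay above 0. At 72 h 56 of 70 assembly factors rose and 2 fell, with a median of 0.60, against 30.7% and 30.9% of all tested genes. Among them were Nolc1, a nucleolar phosphoprotein (1.27, SE 0.13, adjusted p = 9.01e-07), Gnl3, or nucleostemin (1.08, SE 0.11, adjusted p = 7.24e-07), and Tsr1, a factor of the small subunit (0.81, SE 0.08, adjusted p = 7.65e-07). Imp3 and Rrp1b were those that fell. In kidney 16 of 71 fell and 0 rose, with a median of -0.26, against 6.34% and 3.87% of all tested genes. Pes1, needed for the large subunit, had a difference of -0.53 (SE 0.07, adjusted p = 0.0041), and Eif6, which keeps unfinished large subunits apart from small ones, of -0.38 (SE 0.07, adjusted p = 0.0091). In liver 3 of 71 fell (2.02% of all tested genes), with a median of -0.18, among them Nol6 (-1.19, SE 0.25, adjusted p = 0.0442).

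Genes outside the ribosome with TOP mRNAs, mostly translation factors, were listed as 15 and tested as 11. At 24 h 4 rose (6.43% of all tested genes) and 0 fell, with a median of 0.25, among them Eif3f (0.33), Eif3h (0.26) and the elongation factor Eef2 (0.28, SE 0.07, adjusted p = 0.0176). At 72 h 8 rose and 1 fell, against 30.7% and 30.9% of all tested genes, with Eif4b up by 1.28 (SE 0.22, adjusted p = 0.000104) and the RNA-binding protein Hnrnpa1 lower (-0.62, SE 0.09, adjusted p = 2.46e-05). In kidney 3 fell (6.34% of all tested genes) and 0 rose, with a median of -0.13, namely Eef1d (-0.34), Eif4b (-0.26) and Hnrnpa1 (-0.39). In liver 1 rose (1.1% of all tested genes), Vim (0.57), an intermediate filament protein. Rack1, which sits on the small subunit and whose symbol the rule does not take, rose in cells by 0.15 at 24 h (adjusted p = 0.0423) and by 0.18 at 72 h (adjusted p = 0.00438), and differed by -0.18 in kidney (adjusted p = 0.147).

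**Figure D5:**
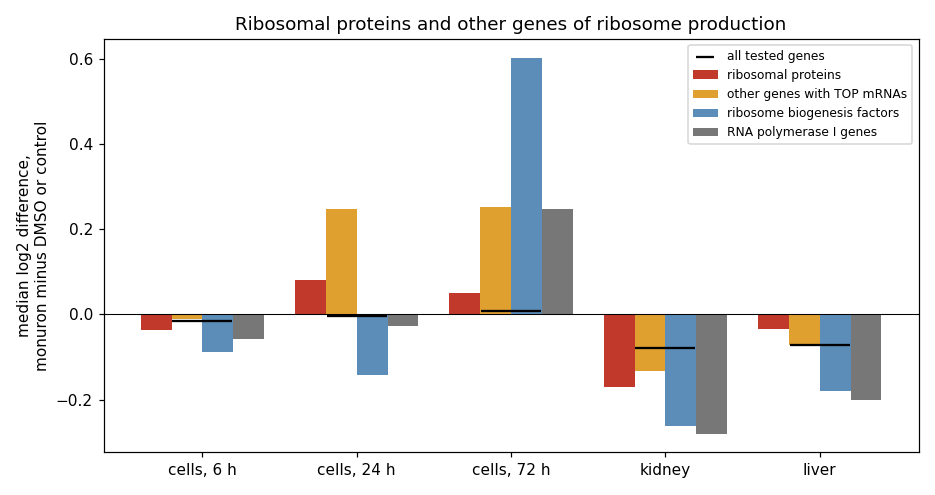
Bars are median log2 differences, monuron minus DMSO or control, of the ribosomal proteins, of other genes with TOP mRNAs, of ribosome biogenesis factors and of RNA polymerase I genes, with a black line at the median of all tested genes. Biogenesis factors lie below 0 at 24 h (-0.14) and at 0.60 at 72 h, while the ribosomal proteins are at 0.08 and 0.05, and all 4 groups lie below 0 in kidney.

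Genes of RNA polymerase I and its factors, which transcribe rRNA, had 3 of 21 lower at 24 h (7.14% of all genes), Ubtf among them (-0.49, SE 0.09, adjusted p = 0.00391). At 72 h 8 of 21 rose and 7 fell, near the 30.7% and 30.9% of all tested genes, with Polr1b up by 1.37 and Polr2l, a subunit shared by all polymerases, down with a difference of -1.74. In kidney 4 fell and 1 rose, against 6.34% and 3.87% of all genes, and Myc, a transcription factor of growth genes, had the largest difference on the list (-2.27, SE 0.30, adjusted p = 0.00365). Mybbp1a, a nucleolar protein, fell in liver (-0.65, SE 0.11, adjusted p = 0.0251). Among 13 tested regulators of ribosomal protein mRNAs, 5 rose and 3 fell at 72 h, against 30.7% and 30.9% of all tested genes. Larp1, which binds the TOP motif, rose by 0.84 (adjusted p = 4.25e-05). Eif4ebp1, the translation repressor that mTOR phosphorylates, rose by 1.75 (adjusted p = 1.69e-05), and Mtor itself had a difference of -0.38 (adjusted p = 0.00918). Sesn2, an inhibitor of mTOR signalling, rose by 1.03 at 24 h and by 1.59 at 72 h. In kidney and liver 0 of 13 of these regulators passed the threshold.

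The members were also split by the annotated start used above, as a description. Other starts of a gene were not looked at, so members without a run there can still have TOP mRNAs. At 24 h the 11 tested members with a C at the start and a pyrimidine run had a median difference of 0.10 and 2 of them rose, against 0.08 and 2 of 27 without one. At 72 h the medians were 0.08, with 4 that rose, and 0.05, with 7 that rose and 1, Rpl11, that fell. In kidney they were -0.15, with 1 that fell, and -0.18, with 9 that fell. The 36 probe sets with several symbols, which the members do not include, had medians of 0.08 at 24 h (3 higher, 0 lower), 0.09 at 72 h (12 higher, 0 lower) and -0.15 in kidney (8 of 35 lower, 0 higher). In a fit of all named probe sets 4.9%, 28.5% and, for the lower side in kidney, 4.79% passed the threshold.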

How the data were processed

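RNA of 34 rat samples was measured on 34 arrays. The deposited values are log2 expression per probe set; the submitters' processing notes name GCRMA, with no version given in the sources used here. This method corrects the background, brings arrays towards a common distribution and summarises the probes, so that a shift shared by most genes is removed. Arrays have no read depth, and their number limits the precision.

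Of 31099 probe sets, 57 controls were left out, 20826 carried 1 symbol in the platform annotation, 436 several and 9780 none. The probe set with the highest mean stood for each gene. It was tested if above its array's median on at least 3 arrays (cells) or 4 (kidney or liver). Groups were compared with limma 3.58.1 (lmFit and eBayes with a mean-variance trend, R 4.3.3), all 18 cell arrays in 1 fit and each organ in its own. The two-sided p-values were adjusted by Benjamini-Hochberg over all genes tested (9042 in cells, 9542 in kidney, 9361 in liver, 10114 in the joint fit of both organs). The procedure was tested on simulated data.

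Same-numbered arrays were checked for pairing through the correlation of their deviations from the group means. At 6 h it was 0.197 to 0.491 and at 72 h 0.167 to 0.317, which pairs them by the rule that every pair exceed 0.1. At 24 h, in kidney and in liver it was not. Named with values are, per treatment comparison, the 4 members that passed with the lowest adjusted p on each side (or 2 where none passed), a fixed panel by role, and up to 3 genes per direction of each further list. Rpl4 and Rpl12 in kidney and those in brief lists were named after their values were seen. Members, lists and tests were chosen with earlier results of these data known. RefSeq tables of GRCr8 gave promoters. Alternatives covered scaling, filter, probe sets, variance model, block and single arrays left out.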

Additional observations from a re-analysis of the deposited data

Results flagged for a closer look

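Within the groups of 4 arrays, 2 of 64 member groups held an array far from the other 3, where chance gives about 1 in 20. Rpl23a on monuron replicate 2 of kidney was 14.24, with the other 3 at 14.19 to 14.20. Rpl13a on control replicate 1 of kidney was 14.67, with the other 3 at 14.40 to 14.43.

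The treatment difference itself differed between conditions in 3 members, by the interaction tests given above. These were Rpl11 between 72 h and 24 h in cells (-0.28, lost with arrays centred on their medians, adjusted p = 0.23), and Rpl23 (0.35) and Rpl3 (0.62) between liver and kidney.

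Probe sets that were not used for a gene also passed the threshold in cells. The second probe set of Rps24 differed by 1.01 at 6 h, with a mean of 7.85 with monuron against 6.84 with DMSO, and by 0.63 at 72 h. Its main probe set is far brighter and did not pass the threshold at either time. A second probe set of Rpsa differed by 0.43 at 24 h and 0.46 at 72 h, and another by 0.22 at 72 h, each in the direction of the main one. The second probe set of Rpl7l1 differed by 0.26 at 72 h (main -0.04) and that of Rpl3 by 0.42 (main -0.02). What these probe sets bind beside the main transcript was not tested.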

How the results depend on the processing

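The members' median kept its sign under every alternative in the treatment comparisons of cells, kidney and liver, but the counts of members past the threshold did not hold. The variance model, the block and the use of only 6 arrays cannot move that median. Less the median of all genes, it changed sign after quantile normalization at 6 h (-0.021 to 0.016), 72 h (0.042 to -0.003) and in liver (0.037 to -0.006). With no filter it also changed sign in liver (-0.024). Centring arrays on their medians gave 1 lower at 6 h (median -0.108), 2 higher at 24 h, 34 higher and 0 lower at 72 h (median 0.210), 39 lower in DMSO at 24 h (median -0.246), a DMSO median of 0.308 at 72 h, 1 lower in kidney (median -0.082) and 0 higher for liver minus kidney (median 0.039). Over all genes it gave 460 lower at 6 h, 517 higher at 24 h, and 3604 higher and 2019 lower at 72 h. It also gave 3355 lower in DMSO at 24 h, 289 lower in kidney and 97 higher for liver minus kidney. The changes between times were then 0.209 in the median for 24 h minus 6 h, and 0.126 with 2 higher and 0 lower for 72 h minus 24 h. Centring on other bright genes gave 10 higher at 24 h (753 over all genes) and 5 for 24 h minus 6 h (128 over all genes). It gave 18 lower in kidney and 5 higher for liver minus kidney (median 0.189, 146 over all genes). The DMSO median at 72 h was then 0.197. Quantile normalization gave 1 higher for 24 h minus 6 h (median 0.072, 97 over all genes) and 2 lower for 72 h minus 24 h. In DMSO it gave 10 lower at 24 h (median -0.031, 2729 over all genes). At 72 h in DMSO 13 were higher (median 0.100, 1147 over all genes). With no filter the counts were 2 higher at 24 h, 18 higher in DMSO at 72 h, 7 lower in kidney, and 0 higher and 1 lower for liver minus kidney. Without the variance trend they were 2 higher at 24 h, 5 at 72 h, 15 in DMSO at 72 h, 2 lower in kidney and 0 for liver minus kidney. Over all genes, no filter gave 433 higher at 24 h and 905 in DMSO at 72 h. No variance trend gave 533 higher at 24 h, 2763 at 72 h and 1024 in DMSO at 72 h. Averaging probe sets gave 1 higher at 6 h, in both changes between times, in DMSO at 24 h and for liver minus kidney, and 1 lower at 24 h. Only the 6 arrays of a time gave 7 higher at 24 h and 3 at 72 h, beside 1649 and 1837 of the 9042 genes tested. Rpl3 at 72 h, -0.02 as deposited, was 0.20 (adjusted p = 0.00886) when averaged over its probe sets and 0.14 (adjusted p = 0.0376) with median centring. Where no count over all genes is given, the count of members cannot be set against genes at large. The causes were not tested.

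With the replicate number as a block 6 members were lower at 6 h (14.3%, against 17.5% of all tested genes) and 3 higher at 72 h (7.14%, against 22.5%), where the numbers pair the arrays. Elsewhere, where they share only a number, the block gave 8 higher and 1 lower at 24 h (17.1% and 16.7% of all genes), 1 lower in kidney (1.94%), and 0 in liver. In no group did every array correlate best with its own number.

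Leaving out 1 array at a time gave 0 to 1 lower at 6 h, 2 to 9 higher and 0 to 1 lower at 24 h, 7 to 12 higher and 1 to 2 lower at 72 h, 2 to 13 lower in kidney, and 0 to 1 on each side in liver. It gave 0 to 6 higher for 24 h minus 6 h (median 0.088 to 0.142), 0 to 1 higher and 1 to 3 lower for 72 h minus 24 h, and 0 to 5 higher and 0 to 1 lower for liver minus kidney. These ranges stand here without counts over all genes, so they cannot be set against genes at large. Most members lie near the top of the scale, and how far that limits their differences was not tested.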

Other observations

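Rpl39l1, too dim to be tested in the organs, had 2.99, 2.82, 2.86 and 2.82 in livers of monuron rats and 3.83, 4.24, 3.35 and 4.32 in control livers. The groups do not overlap, but only 3 of the 8 values lie above their array's median, so the size of the gap is uncertain. Rps4y2 lay below the array median on all 18 cell arrays and above it on all 16 organ arrays, with SDs of 0.48 to 1.02 within the groups of the organs, wider than in most members.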
